A study of Homo sapiens with 4 samples.

Results

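FOXK2 binding was examined at the genes of the corepressor and deubiquitinase complexes that FOXK2 is known to work with: SIN3A, SIN3B, HDAC1, HDAC2, BAP1, ASXL1, ASXL2, NCOR1 and RCOR1. The 9 genes were chosen by name, and a peak was counted for a gene when the deposited annotation listed it under that gene's symbol, which is the gene of the nearest transcription start site (TSS). In all, 19 of 39752 peaks carried one of these names, 4 of 12471 in replicate 1 and 15 of 27281 in replicate 2. The peaks come from chromatin immunoprecipitation of FOXK2 followed by sequencing (ChIP-seq) in 2 biological replicates of OVCAR5 cells, a high grade serous ovarian cancer line per the labels, for which the labels give no treatment and no genetic change. Each replicate has an input library, chromatin without the FOXK2 antibody, which was not analysed here. With a single cell line and a single condition, there was no comparison between conditions, and no test was run over the 9 genes.

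FOXK2 is a forkhead transcription factor that binds DNA at sites built on the sequence TGTTTAC. SIN3A and SIN3B are scaffold proteins that bring the histone deacetylases HDAC1 and HDAC2 to chromatin, and FOXK proteins are known partners of this complex. BAP1 is a deubiquitinase that removes ubiquitin from histone H2A, ASXL1 and ASXL2 are its activating subunits, and FOXK1 and FOXK2 can tether it to DNA. NCOR1 is the scaffold of a corepressor complex of nuclear receptors, and RCOR1, also called CoREST, joins HDAC1 or HDAC2 to a histone demethylase. The peaks below lie at the genes that encode these proteins. They say nothing of where the proteins themselves sit.

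In replicate 2, 8 of the 9 genes had a peak, and in replicate 1 there were 3, namely HDAC1, ASXL1 and RCOR1. NCOR1 had none in either list, so 8 of 9 had a peak in at least 1 list, beside 54.4% of all 20037 protein-coding genes of the reference. The 3 genes of replicate 1 also had a peak in replicate 2, but only HDAC1 and ASXL1 had peaks that overlapped between the lists by at least 1 bp. Among the protein-coding genes, 31.3% had a peak in replicate 1, 51.7% in replicate 2, 28.6% in both and 25.5% had overlapping peaks. The counts of 3 of 9 in both replicates (33.3%) and 2 of 9 with overlapping peaks (22.2%) were near these shares. In replicate 2 the count of 8 of 9 was above its background in the longer list.

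Each peak has a score that HOMER scales to the library, so scores were ranked only within their own list, and the percentile of a peak is the share of its list with a lower score. The scores rose in whole steps of 0.1886 in replicate 1 and 0.1487 in replicate 2, so each peak also gives the number of sequenced tags behind it. If HOMER scaled each library to its default of 10000000 tags, the steps correspond to libraries of about 53000000 and 67200000 tags. The median peak held 31 tags in replicate 1 and 49 in replicate 2. Intervals of tags below are exact Poisson intervals at 95% and cover counting error only.

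**Figure D1:**
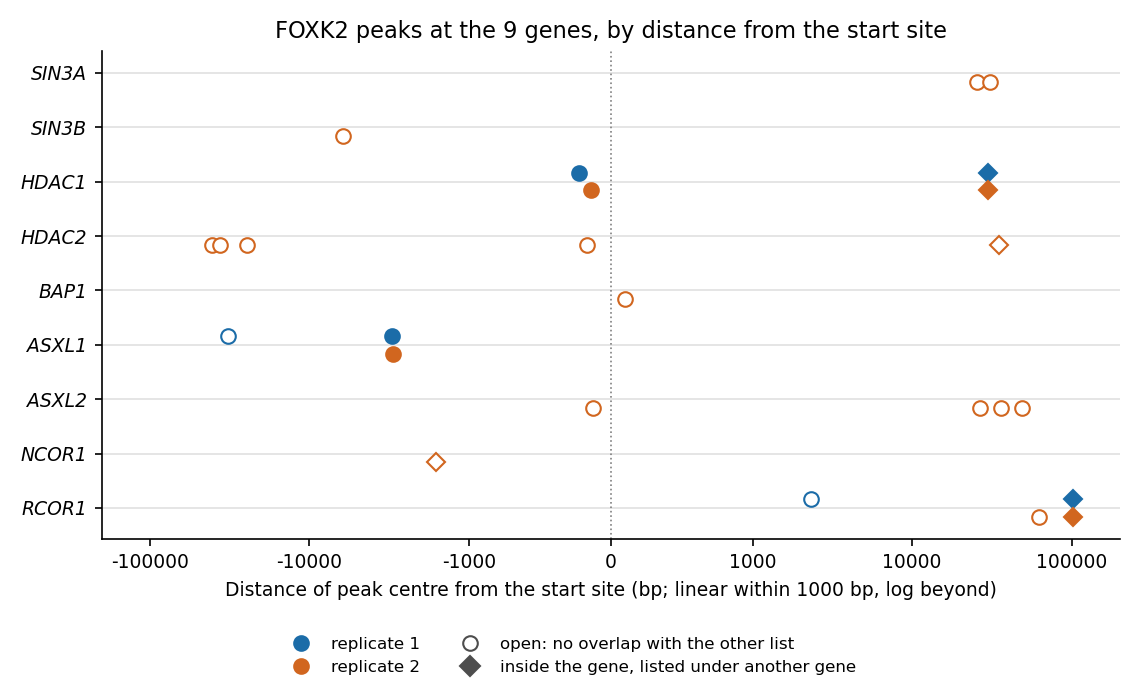
Distance in bp from the annotated start site of each gene to the centre of every peak listed under it, for replicates 1 and 2. The axis is symmetric log with upstream to the left. Circles are peaks listed under the gene, and diamonds are peaks inside it that are listed under another gene. Circles are placed by the deposited distance and diamonds from the GENCODE start of the gene. Filled symbols are peaks that overlap the other list. NCOR1 has no circle, and the 5 promoter peaks are at HDAC1 in both replicates and at HDAC2, BAP1 and ASXL2 in replicate 2.

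HDAC1, a catalytic subunit shared by the SIN3, CoREST and NuRD complexes, was the only one of the 9 genes whose promoter carried a peak in both lists. The peak lay at chr1:32291775-32291985 in replicate 1, with a score of 7.36 (rank 3872, percentile 67.1), and at chr1:32291838-32292094 in replicate 2, with a score of 9.96 (rank 7837, percentile 70.3). The scores stood for 39 tags (27.7 to 53.3) and 67 tags (51.9 to 85.1). The centres lay 227 and 141 bp upstream of the annotated TSS, 86 bp apart, and the peaks had 147 bp in common. In all, 11.9% of protein-coding genes had a promoter peak in replicate 1, 21.2% in replicate 2 and 9.31% in both. The part common to both peaks is shown because it is the only promoter sequence shared by both lists among the 9 genes. It is printed as the plus strand of hg38, and the capitals mark AGTTTAC, which differs from the forkhead heptamer by T1A, where base 1 is the leading T of TGTTTAC.
HDAC1 promoter, chr1:32291838-32291985: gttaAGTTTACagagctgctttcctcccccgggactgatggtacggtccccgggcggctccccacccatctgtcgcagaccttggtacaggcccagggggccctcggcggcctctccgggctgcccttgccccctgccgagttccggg

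The common part was rich in G and C (68.9%) and held neither TGTTTAC, nor the AP-1 site TGANTCA, nor the ETS site CCGGAAG. HDAC1 also held a stronger shared peak that the deposited annotation did not give to it. This peak lay in intron 3 of 13 of HDAC1 and was listed under MARCKSL1, whose TSS is nearer. It was at chr1:32321772-32321982 in replicate 1, with a score of 7.55 (percentile 69.0, 40 tags, 28.6 to 54.5), and at chr1:32321782-32322038 in replicate 2, with a score of 15.9 (percentile 89.3, 107 tags, 87.7 to 129). Its centres lay 29794 and 29827 bp downstream of the HDAC1 TSS and 14362 and 14329 bp from that of MARCKSL1. In replicate 2, the interval of tags was above that of the promoter peak, while in replicate 1 the intervals of the intronic and promoter peaks overlapped. Its sequence holds an exact forkhead heptamer at chr1:32321930-32321936, 56 bp from the peak centre in replicate 1 and 23 bp in replicate 2. The capitals mark this site and 3 heptamers that differ from it at 1 base: C7T at 2 places on the minus strand, read here as ATAAACA, and G2A as TATTTAC.
HDAC1 intron 3, chr1:32321782-32321982: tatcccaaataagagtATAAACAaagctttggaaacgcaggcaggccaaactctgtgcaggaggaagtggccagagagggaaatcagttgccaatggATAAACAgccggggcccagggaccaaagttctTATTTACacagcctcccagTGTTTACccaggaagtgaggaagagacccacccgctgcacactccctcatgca

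HDAC2, the paralogue of HDAC1 in the same complexes, had 4 peaks in replicate 2 and none in replicate 1. The strongest was at the promoter, at chr6:113971231-113971487, with a score of 12.3 (rank 5048, percentile 81.0) and 83 tags (66.1 to 103). Its centre lay 164 bp upstream of the TSS. This was the strongest promoter peak of the 9 genes in replicate 2, and it had no partner in replicate 1, where the nearest peak was 116121 bp away. The centre also lies in intron 1 of 9 of the antisense gene HDAC2-AS2. Among the 500 peaks of closest rank in its list, 64.0% had a partner in replicate 1. The other 3 HDAC2 peaks lay 24483 to 40547 bp upstream of the TSS inside HDAC2-AS2, with scores of 5.21, 4.76 and 4.16 (percentiles 23.4, 17.1 and 7.79). Those with scores of 5.21 and 4.16 were also within the widest extent of HDAC2 in GENCODE. The peak with a score of 4.76 was annotated to an LTR14 element, a repeat of the ERVK family of endogenous retroviruses, and lay within 1000 bp of an alternative HDAC2 start in GENCODE. A further replicate 2 peak in the last exon of HDAC2, with a score of 5.80 (percentile 31.9, 39 tags), was listed under FLJ34503.

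The SIN3 scaffold genes, SIN3A and SIN3B, had weak peaks, in replicate 2 alone. SIN3A had a peak in intron 2 of 20 at chr15:75425987-75426243, with a score of 5.35 (rank 19709, percentile 25.6, 36 tags, 25.2 to 49.8), and another in intron 3 at chr15:75420817-75421073, with a score of 4.02 (percentile 5.64, 27 tags, 17.8 to 39.3). They lay 25470 and 30640 bp downstream of the TSS. SIN3B had 1 peak, 6133 bp upstream of its TSS at chr19:16823126-16823382, with the same score of 4.02 and within a MER41A element, an LTR of the ERV1 family. None of the 3 peaks had a partner in replicate 1. Among their neighbours in rank, 14.4% had a partner around the stronger SIN3A peak, 1.4% around the weaker one and 1.6% around the SIN3B peak. The stronger SIN3A peak was the only peak listed under any of the 9 genes with TGTTTAC within 100 bp of its centre. The site was on the minus strand at chr15:75426194-75426200, 82 bp from the centre, and is marked by capitals (as GTAAACA) in the window searched.
SIN3A intron 2, chr15:75426015-75426215: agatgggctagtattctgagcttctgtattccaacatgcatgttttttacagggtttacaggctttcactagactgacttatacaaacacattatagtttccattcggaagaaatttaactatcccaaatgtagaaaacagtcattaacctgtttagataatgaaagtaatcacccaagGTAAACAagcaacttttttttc

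**Figure D2:**
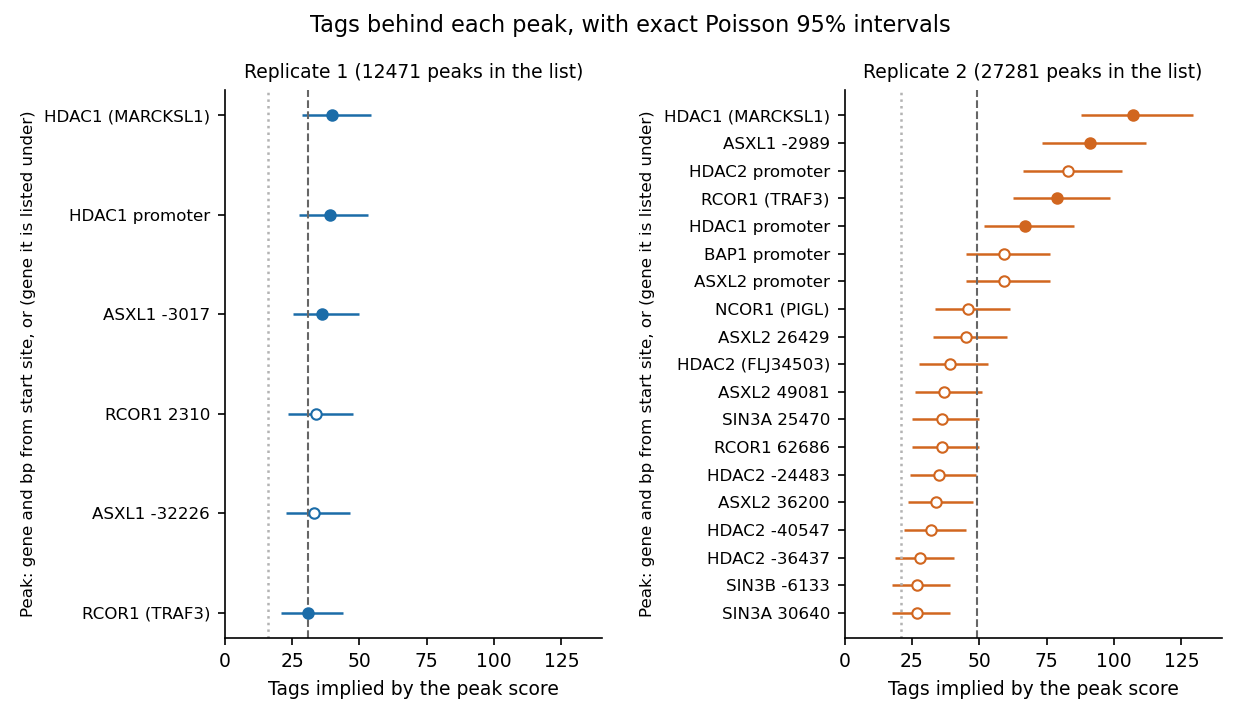
Tags implied by the score of each peak listed under the 9 genes, and of the peaks inside them or within 1000 bp upstream that are listed under another gene, by replicate. Points are tags, bars are exact Poisson 95% intervals dashed lines are the median peak of each list (31 and 49 tags), dotted lines are its weakest peak (16 and 21) and filled points overlap the other list. The highest point is the HDAC1 intron 3 peak in replicate 2, at 107 tags.

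Of the BAP1 complex genes, ASXL1 had the best-ranked peak listed under any of the 9 genes in replicate 2, and it was shared by both lists. ASXL1 is a Polycomb-related protein that activates BAP1. In replicate 1 the peak was at chr20:32355222-32355432, with a score of 6.79 (rank 4624, percentile 60.8) and 36 tags (25.2 to 49.8). In replicate 2 it was at chr20:32355227-32355483, with a score of 13.5 (rank 4149, percentile 84.4) and 91 tags (73.3 to 112). The interval included the list median of 31 tags in replicate 1 and was above the median of 49 tags in replicate 2. The peaks had 205 bp in common, their centres were 28 bp apart, and they lay 3017 and 2989 bp upstream of the annotated ASXL1 TSS, in sequence annotated as intergenic. GENCODE places a long non-coding RNA of a single exon at the peak centre. The common sequence holds the AP-1 site TGACTCA and 2 heptamers that differ from TGTTTAC at 1 base, T5A (TGTTAAC) and C7T (TGTTTAT), all marked by capitals, but no exact forkhead heptamer.
ASXL1 upstream, chr20:32355227-32355432: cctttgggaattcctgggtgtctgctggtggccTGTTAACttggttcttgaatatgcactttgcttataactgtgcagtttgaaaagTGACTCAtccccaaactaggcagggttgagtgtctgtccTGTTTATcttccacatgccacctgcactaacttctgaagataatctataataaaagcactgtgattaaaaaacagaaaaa

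A second replicate 1 peak listed under ASXL1 lay 32226 bp upstream, in intron 5 of 8 of the neighbouring gene KIF3B, which encodes a kinesin motor protein. It had a score of 6.23 (percentile 53.7, 33 tags, 22.7 to 46.3) and no partner in replicate 2. Among its neighbours in rank, 76.4% had a partner.

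BAP1 and ASXL2 each had a promoter peak in replicate 2 and none in replicate 1. Both peaks had the same score of 8.77 (rank 9936, percentile 62.5), or 59 tags (44.9 to 76.1), an interval that included the list median of 49. The BAP1 peak, at chr3:52409875-52410131, had its centre 102 bp downstream of the TSS, and the start of PHF7 also lies within 1000 bp. The ASXL2 peak, at chr2:25878512-25878768, had its centre 124 bp upstream and held 1 ETS site, CCGGAAG, shown in capitals as CTTCCGG on the plus strand because it is the only ETS site among the 19 peaks.
ASXL2 promoter, chr2:25878512-25878768: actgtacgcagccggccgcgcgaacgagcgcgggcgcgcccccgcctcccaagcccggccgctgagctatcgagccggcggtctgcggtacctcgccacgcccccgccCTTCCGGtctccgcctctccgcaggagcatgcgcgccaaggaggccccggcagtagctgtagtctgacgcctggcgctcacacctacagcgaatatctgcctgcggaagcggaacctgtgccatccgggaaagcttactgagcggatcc

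These promoter peaks were 75.5% and 70.0% G and C. Around them in rank, 38.2% and 38.4% of replicate 2 peaks had a partner in replicate 1. ASXL2, the paralogue of ASXL1, had 3 further replicate 2 peaks in its introns 1 and 2, 26429 to 49081 bp from the TSS, with scores of 6.69, 5.50 and 5.06 (percentiles 42.6, 27.8 and 21.1) and no partner.

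RCOR1 had a peak in each replicate, both in intron 2 of 11, but at different places. The replicate 1 peak was at chr14:102594864-102595074, 2310 bp from the TSS, with a score of 6.41 (percentile 56.1, 34 tags, 23.6 to 47.5). The replicate 2 peak was at chr14:102655217-102655473, 62686 bp from the TSS, with a score of 5.35 (percentile 25.6, 36 tags, 25.2 to 49.8). A gap of 60143 bp separated them, so the count of RCOR1 among genes with a peak in both replicates did not rest on a shared site. In the ranks around the replicate 1 peak 81.6% of peaks had a partner, and 14.2% around the replicate 2 peak.

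A shared peak did lie inside RCOR1, in intron 3 of 11, but it was listed under TRAF3, which encodes a signalling adaptor. It was at chr14:102694632-102694842 in replicate 1, with a score of 5.85 (percentile 47.5, 31 tags, 21.1 to 44), and at chr14:102694583-102694839 in replicate 2, with a score of 11.7 (percentile 78.8, 79 tags, 62.6 to 98.5). The centres were 102088 and 102062 bp downstream of the RCOR1 TSS and 82742 and 82768 bp upstream of that of TRAF3. An exact forkhead heptamer at chr14:102694706-102694712 lay 28 bp from the centre in replicate 1 and 2 bp in replicate 2. The capitals mark this site and a heptamer with A6T, TGTTTTC.
RCOR1 intron 3, chr14:102694632-102694839: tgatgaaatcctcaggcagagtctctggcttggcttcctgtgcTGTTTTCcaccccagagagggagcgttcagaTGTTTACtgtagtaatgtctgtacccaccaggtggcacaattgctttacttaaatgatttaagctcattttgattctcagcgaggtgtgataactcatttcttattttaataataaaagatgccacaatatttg

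NCOR1, the longest of the 9 genes (189121 bp), had no peak listed under its name. The replicate 2 peak nearest to its start was the promoter peak of PIGL, at chr17:16217021-16217277, with a score of 6.84 (percentile 44.4, 46 tags, 33.7 to 61.4). Its centre lay 1615 bp from the annotated NCOR1 TSS, within the widest extent of NCOR1 in GENCODE but upstream of that start. In replicate 1 the nearest peak was 735 bp beyond the other end of NCOR1, in the 3′ UTR of TTC19, with a score of 4.15 (percentile 9.70). It overlapped a replicate 2 peak with a score of 8.33 (percentile 58.9).

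Counted by position in place of name, 6 peaks listed under other genes lay inside the 9 genes or within 1000 bp upstream, and 4 of them, at HDAC1 intron 3 and RCOR1 intron 3, had a partner in the other list. This kind of naming was common: of peaks inside protein-coding genes, 2087 of 6819 in replicate 1 (30.6%, Wilson 95% interval 29.5% to 31.7%) and 4772 of 14724 in replicate 2 (32.4%, 31.7% to 33.2%) were listed under another gene. By position alone, HDAC1 and RCOR1 held peaks of both replicates that overlapped, 2 of 9, while 28.7% of protein-coding genes in GENCODE held peaks of both and 26.1% held overlapping ones. By name or position together, a rule added after seeing the data, HDAC1, ASXL1 and RCOR1 had overlapping peaks, 3 of 9 (33.3%), near the 32.2% of GENCODE protein-coding genes under the same rule. The ratio of the replicate 2 score to the replicate 1 score was 2.11 at HDAC1 intron 3 and 2.00 at RCOR1 intron 3. It was 1.99 upstream of ASXL1 and 1.35 at the HDAC1 promoter. Over all 9343 overlapping pairs the median ratio was 1.73, with 5th and 95th percentiles of 1.115 and 2.504, and all 4 ratios lay between these. The scores are scaled separately, so a ratio is read only against those of the other pairs.

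Among the peaks by name, the weak peaks of replicate 2 were those away from promoters. Promoter peaks were 1 of 4 in replicate 1, where 21.7% of the list were such peaks, and 4 of 15 in replicate 2, where 18% were. All 4 promoter peaks of the 9 genes were above percentile 50 (62.5 to 81.0, median 66.4), beside a median of 63.6 for all promoter peaks of replicate 2. Of the 11 other peaks, 10 were below percentile 50, with a median of 23.4 over the 11, beside 46.1 for all peaks outside promoters. The exception was the peak upstream of ASXL1. In replicate 1 the 4 peaks lay between percentiles 53.7 and 67.1. Ordered by their strongest replicate 2 peak by name, the genes ran from ASXL1 (91 tags) and HDAC2 (83) through HDAC1 (67), BAP1 and ASXL2 (59 each) to RCOR1 and SIN3A (36 each) and SIN3B (27). All peaks of a list have 1 width (256 bp in replicate 2), so these counts compare equal lengths. The intervals of neighbours in this order overlapped, while those of ASXL1, HDAC2 and HDAC1 were above those of RCOR1, SIN3A and SIN3B. This order holds for peaks by name only. With the peaks inside the genes that are listed under others, HDAC1 came to 107 tags (87.7 to 129) and RCOR1 to 79 (62.6 to 98.5). HDAC1 then had the highest count, but both intervals overlapped those of ASXL1 and HDAC2. These stronger peaks of HDAC1 and RCOR1 were both intronic and away from promoters.

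**Figure D3:**
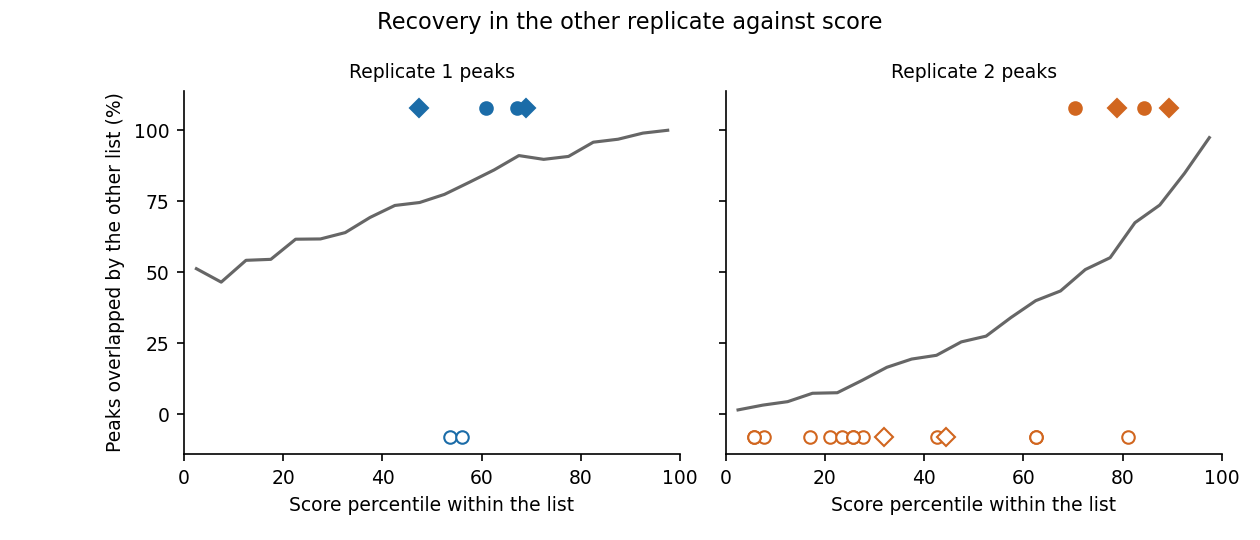
Share of peaks with an overlapping peak in the other list against the score percentile within the list, in bins of 5 percentiles (lines). Peaks of the 9 genes are placed by percentile alone, filled along the top where they had a partner and open along the bottom where they had none, as circles for peaks by name and diamonds for peaks inside a gene that are listed under another. In replicate 2 the share ran from 1.56% in the lowest bin to 97.4% in the highest, and the 2 filled circles are those of HDAC1 and ASXL1.

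Of the 15 replicate 2 peaks, 2 had a partner in replicate 1 (13.3%), beside 34.2% of the whole list. Of the 4 replicate 1 peaks, 2 had a partner, beside 74.9%. The recovered share depended on rank in both lists, and 13 unpaired replicate 2 peaks included all 10 below percentile 50. HDAC2 stood highest among the unpaired ones, at percentile 81.0.

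The forkhead heptamer was within 100 bp of the centre of 1 of the 19 peaks by name, the SIN3A intron 2 peak. Over the lists 30.5% of peaks in replicate 1 and 28.2% in replicate 2 held it, beside 2.88% and 2.89% of control windows 2000 bp to each side. In promoter peaks alone the shares were 14.4% and 10.9%. None of the 5 promoter peaks of the 9 genes held it, and neither did any of their 13 RefSeq promoter windows around annotated starts (8 of the 9 genes matched, with none for BAP1), beside 3.42% of all 35116 windows. TGTTTNC was in 6 of the 19 peaks (45.9% and 43.8% of the lists), TGANTCA in 5 (20.8% and 21%) and CCGGAAG in 1 (5.69% and 4.9%). That ETS site was in 1 of the 5 promoter peaks, and over all promoter peaks the shares with CCGGAAG were 18.0% and 18.4%. Of the 13 RefSeq windows, 4 held CCGGAAG (10.3% of all windows), 1 held TGTTTNC (18.0%) and 1 held TGANTCA (7.71%). The AP-1 site lay in both peaks upstream of ASXL1, in the weaker SIN3A peak, in the RCOR1 peak of replicate 2 and in an ASXL2 intronic peak. All 4 peaks at HDAC1 intron 3 and RCOR1 intron 3 held TGTTTAC. Every exact heptamer also counts as a match of the degenerate one. Motifs were searched on both strands, and a match is a description of the sequence only.

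The other subunits of the same complexes and of NuRD, a deacetylase and remodelling complex, were counted from fixed lists of 56 genes. Of these, 23 had a peak in replicate 1 (41.1%, background 31.3%), 36 in replicate 2 (64.3%, background 51.7%) and 19 had overlapping peaks in both (33.9%, background 25.5%). Overlapping peaks were at 7 of 19 genes of the SIN3-HDAC list, 4 of 9 of the BAP1 list, 3 of 7 of the NCoR-SMRT list, 3 of 12 of the CoREST list and 3 of 13 of the NuRD list, and a few genes stand in more than 1 list. Overlapping promoter peaks were at 8 of the 56 genes (14.3%, background 9.03%).

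**Figure D4:**
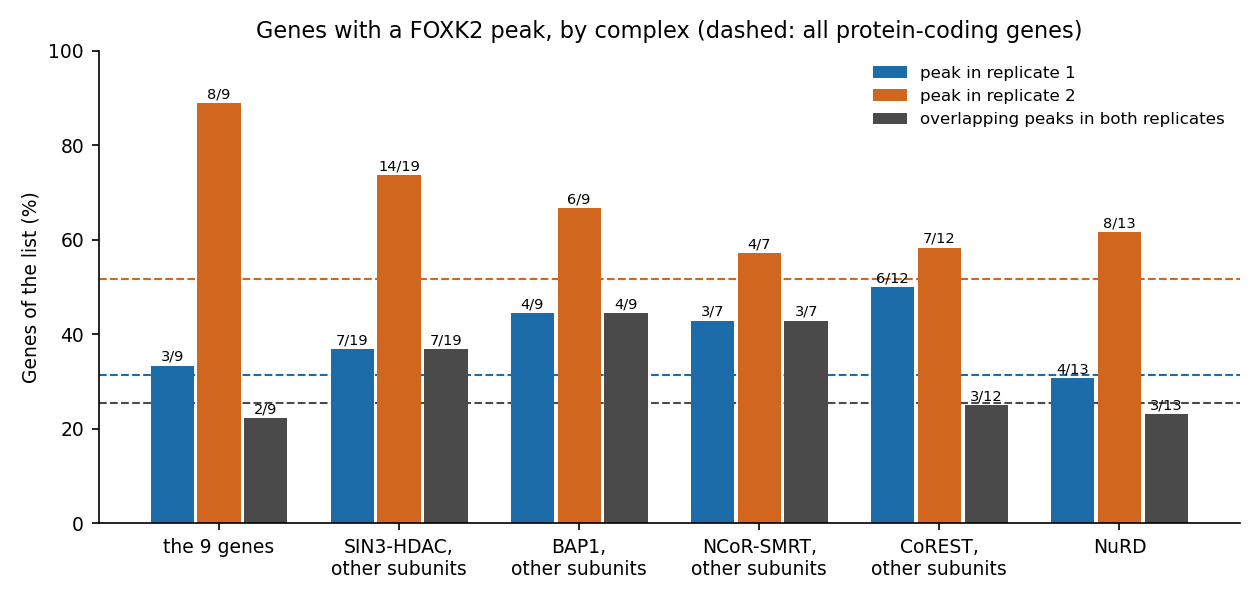
Share of the genes of each complex list with a peak in replicate 1, with a peak in replicate 2 and with overlapping peaks in both, with the number of genes above each bar and the share over 20037 protein-coding genes as dashed lines. The 9 genes reach 88.9% in replicate 2 and 22.2% for overlapping peaks.

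By mean percentile over both lists, the highest of these 8 promoters was that of TBL1X, a subunit of the NCoR-SMRT complex, with scores of 8.87 (percentile 78.7) and 13.7 (percentile 84.8) in replicates 1 and 2. MBD6, a methyl-CpG-binding domain protein of the BAP1 complex, had scores of 7.92 (percentile 72.1) and 15.2 (percentile 88.1), above TBL1X in replicate 2 and below it in replicate 1, but its peaks had only 16 bp in common. SINHCAF, a SIN3-HDAC subunit, was at percentiles 53.7 and 84.0. BRMS1L, of the same complex, was at 36.9 and 81.5. ZEB1, a repressor of epithelial genes that works with CoREST and CtBP, was at 56.1 and 56.5. GATAD2B of NuRD, GPS2 of NCoR-SMRT and HCFC1, a BAP1 partner, had lower mean percentiles of 43.1, 42.3 and 42.0. None of the 8 promoter pairs held TGTTTAC within 100 bp of the centre, beside 14.4% and 10.9% of all promoter peaks in replicates 1 and 2.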

How the data were processed

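OVCAR5 ChIP-seq with a FOXK2 antibody was examined in the peak list of each replicate. Per the labels and the study's methods, the authors aligned reads to hg38 with Bowtie2 2.2.6 and called and annotated peaks per replicate with HOMER 4.10. The deposited score of each peak is HOMER's tag count scaled to the library, and the deposited focus ratio is the fraction of tags on the expected side of the centre. The lists were used whole. In both lists 100% of scores under 10 (10557 and 19445 values) were whole steps within 0.0056, which gave the implied tags. The step was itself chosen so that the low scores met this limit, so the 100% is not a separate check. The weakest peaks held 16 and 21 tags, and the lists say nothing of binding below these values.

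Members and lists were chosen with earlier results of these data known. The text names all 9 members, the 8 other complex genes with overlapping promoter peaks in both replicates and the best mean percentile, 3 genes nearest to ASXL1 in percentile, and neighbours that share a start or receive a peak inside a member. FOXK1, FOXK2 and PHF12, and KIF3B and TTC19 as hosts of a peak, fall outside this rule and were chosen after the values were seen. Background shares cover 20037 RefSeq protein-coding genes (GRCh38.p14), matched by Entrez ID (19103 of 20033 GENCODE genes were matched to RefSeq for the shares by name or position): 14591 of 14631 IDs matched, and 41 peaks had no gene. Transcripts and gene bodies came from GENCODE 44. Peaks were shared from an overlap of 1 bp. Motifs were read from hg38 on both strands. Promoter windows and symbols were from RefSeq. Recovery around a peak was read from its 500 nearest peaks in rank. A promoter peak is one that the deposited annotation calls promoter-TSS.

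Alternatives were the upper part of each list by score, cutting the longer list to the length of the shorter, an overlap of 50%, keeping peaks within 100000 or 10000 bp of the TSS, gene bodies, promoter peaks only, windows of 50 and 500 bp, other motifs and leaving out each replicate. Overlap by name or position, and TGTTTAC in peaks by position, were added after seeing the data. The overlap, motif and step searches were run on simulated data, with 3000 peaks, sequences drawn from a set of 2000, and 20000 scores. The numbers found matched those planted, and the step was recovered. For the motif, sequences that already held it were first removed and only totals were compared. Reads, input libraries and other assays were not analysed here. Sequences were read with samtools 1.23.1 and pysam 0.24.0, and tables, intervals and plots were made in Python 3.11.15 (pandas 2.3.3, numpy 2.4.6; statsmodels 0.14.6, scipy 1.17.1; matplotlib 3.10.9).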

Additional observations from a re-analysis of the deposited data

How the results depend on the processing

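Of 51 alternatives, 30 left a count within 1.5 times its value, or a share within its 95% binomial interval, and 21 moved it further. For counts this small the limit is wide, since 3 against 2 falls within it, while the interval of a share over 20037 genes is narrow. The 3 members with a peak in both replicates became 1 with promoter peaks only. With a replicate left out, no count in both lists can be made, so genes with a peak in the remaining list were counted. Such values are part of the tally above but are a different measure, and they do not check the counts in both. There were 8 members without replicate 1 and 3 without replicate 2. The 2 members with overlapping peaks became 1 with promoter peaks only. Beside the 1 member with promoter peaks in both replicates, the remaining list had promoter peaks at 4 members without replicate 1 and 1 without replicate 2. The 20 other complex genes with a peak in both became 10 in the higher-scoring part of each list, 13 within 10000 bp of the TSS and 8 with promoter peaks only. In the remaining list alone, 36 other complex genes had a peak without replicate 1 and 23 without replicate 2. The background of 28.6% became 17.7% in the higher-scoring part, 23.3% with lists of equal length, 27% within 100000 bp, 16.9% within 10000 bp and 9.31% with promoter peaks only. The share with a peak in the remaining list was 51.7% without replicate 1 and 31.3% without replicate 2. TGTTTAC was in 0 member peaks within 50 bp and 3 within 500 bp, in place of 1 within 100 bp. TGTTTNC was in 6 and TGANTCA in 5. The TGTTTAC count ranged from 0 to 1 with a replicate left out. It was 5 of 21 for peaks inside the members or within 1000 bp upstream, beside 30.5% and 28.2% of the lists. This last alternative was chosen after seeing the data. The cause of these changes was not tested. No paired analysis was possible because only ChIP samples, which form a single group, were analysed here, and not the input samples with matching numbers. The limits are 2 replicates of a single condition, lists of unequal length, and naming by the nearest TSS.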

Other observations

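Shared peaks were also listed under the genes of the FOXK factors themselves and of other subunits, and FOXK1, FOXK2 and PHF12 were chosen after their values were seen. FOXK1, the paralogue of FOXK2, had a peak 40343 bp upstream of its TSS in replicate 1, with a score of 39.2 (rank 36, percentile 99.7), and 40354 bp upstream in replicate 2, with a score of 78.8 (rank 37, percentile 99.9). The peaks had 210 bp in common in a CpG island, by the deposited annotation, and held no TGTTTAC within 100 bp of the centre. In both replicates the start of a long non-coding RNA gene in GENCODE lay within 1000 bp of the peak centre. FOXK1 had no promoter peak in either list. FOXK2 had a shared peak in intron 1 of its own gene, with a score of 3.77 in replicate 1 (percentile 2.36) and 8.77 in replicate 2 (percentile 62.5), and another 25071 and 25121 bp upstream, with scores of 4.72 (percentile 24.4) and 7.58 (percentile 52.1). PHF12, a PHD finger subunit of a SIN3 complex, had a shared peak in intron 2 with scores of 17.2 (percentile 96.6) and 20.8 (percentile 94.8), and both peaks held TGTTTAC.

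Of the 5736 genes with a peak in both replicates, the 3 whose best peaks were most like those of ASXL1 in percentile were ACVR2A (60.8 and 84.4, the same as ASXL1) and CNOT10 and WDR24 (60.8 and 84.0 each). The likeness is the summed difference in percentile over the 2 lists.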
